A study of Mus musculus with 9 samples.

Results

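The GIMAP genes (GTPases of the immunity-associated protein family) were followed in splenic B cells of young and aged C57BL6 mice. The members were chosen by gene symbol: Gimap1, Gimap3, Gimap4, Gimap5, Gimap6, Gimap7, Gimap8 and Gimap9, 8 of the 24346 symbols listed for each library. All 8 had a mean of at least 1 FPKM (a read count scaled by transcript length and by the depth of the library) over the 9 libraries, as did 10375 symbols in all.

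RNA-seq was available for 3 groups of 3 libraries. The replicates of a group are different mice, and whether the FO B cells and ABCs of aged mice came from the same animals is not given in the sources used here. Follicular (FO) B cells came from mice of 8 weeks, named FO B (Young), and of 50 weeks, named FO B (Aged), and were sorted, among other markers, as B220hiCD43-CD23+CD21lo. Age-associated B cells, named ABCs (Aged), came from mice of 50 weeks and were sorted, among other markers, as B220hiCD43-CD23-CD21loCD11b+CD11c+. The mice carried no transgene in these groups, no treatment was given, and the FO B cells and ABCs of the aged mice were defined by the sort gate alone.

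GIMAP proteins are GTP-binding proteins found mostly in lymphocytes, and several sit on membranes of the endoplasmic reticulum, mitochondria, lysosomes or lipid droplets. They carry a GTPase domain of the AIG1 type, which is related to that of the septins and dynamins. In mice, loss of Gimap1 depletes mature T and B cells, and loss of Gimap5 shortens the life of lymphocytes, so the family is known above all for lymphocyte survival.

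In the aged mice, ABCs and FO B cells differed in which GIMAP genes they expressed most. Gimap4 rose 1.55-fold in ABCs, while Gimap6 fell 1.62-fold, Gimap1 fell 1.47-fold, Gimap9 fell 1.28-fold and Gimap8 fell 1.25-fold, so that Gimap4 took the place of Gimap6 as the member with the highest level. Gimap3, Gimap5 and Gimap7 did not pass the test. Over all 10412 genes tested, 35.9% were called. The calls of Gimap4 and Gimap6 held in all 16 alternatives to the fit. Those of Gimap1, Gimap9 and Gimap8 were lost in 1, 1 and 6 of them. The level summed over the 8 genes ranged from 2587 to 2789 FPKM in aged FO B cells and from 2499 to 2670 FPKM in ABCs, and these ranges overlapped. With age, in FO B cells, Gimap4 was the single member that passed the test, 1.28-fold higher in FO B (Aged) than in FO B (Young), and that call was lost without any of several single libraries. With age, 0.464% of all 10122 genes tested were called.

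Depth was estimated from how much FPKM a single read adds to a gene, and was 8090000 to 9840000 mapped reads per library, with 10032 to 10445 genes at 1 FPKM or more. The 7 B lineage markers read (Cd79a, Cd79b, Ms4a1, Pax5, Ebf1, Blk and Cd22) had a summed level of 7615 to 8002 FPKM in the 6 FO B libraries and of 6578 to 8432 FPKM in the ABC libraries. Against FO B (Aged), Cd22 and Blk rose in ABCs by 1.06 and 0.50 on the log2 scale (limma adjusted p = 6.33e-05 and 0.00168). Ebf1 and Pax5 fell by 0.74 and 0.52 (limma adjusted p = 0.0123 and 0.00625), and the other 3 were not called. Of the genes of the gates, Fcer2a, which encodes CD23, was at 984 and 714 FPKM on average in young and aged FO B cells and at 3.86 FPKM in ABCs, while Itgam (CD11b) and Itgax (CD11c) were at 55.1 and 50.7 FPKM in ABCs and under 1 FPKM in every FO B library. Spn, which encodes CD43, on which all groups were gated as negative, was at 4.89, 3.05 and 67.8 FPKM on average in FO B (Young), FO B (Aged) and ABCs. GIMAP genes are also expressed in T and NK cells, so their markers were read. The sum of the 11 T cell markers ranged from 1.44 to 2.98 FPKM in aged FO B cells and from 5.20 to 39.4 FPKM in ABCs. Cd3g alone had a mean of 17.2 FPKM in ABCs, and Thy1 was at 0 in both. Without Cd3g the other 10 summed to 0.277 to 2.33 FPKM in ABCs. The sum of the 7 NK cell markers ranged from 0.600 to 1.20 FPKM in aged FO B cells and from 26.2 to 38.2 FPKM in ABCs, of which Prf1 (perforin) had 29.2 FPKM on average, and without Prf1 the range in ABCs was 0.202 to 2.62 FPKM. Klre1 was at 0 in every library of the 3 groups. Nkg7 had means of 0.119 FPKM in FO B (Aged) and 1.36 FPKM in ABCs. The 8 macrophage and monocyte markers summed to 8.04 to 14.6 FPKM in aged FO B cells and 16.6 to 22.9 in ABCs. In young FO B cells the range of this sum covered that of ABCs and reached 25.2 FPKM. Cd68 rose from a mean of 4.17 FPKM in FO B (Aged) to 10.7 FPKM in ABCs (limma adjusted p = 0.0155). Lyz2 and C1qb were not called (limma adjusted p = 0.614 and 0.154), and the rest of these markers were not tested. The 6 endothelial markers summed to at most 1.17 FPKM and the 4 platelet markers to at most 2.32 FPKM in any library. The sum of the 5 plasma cell markers was 129 to 148 FPKM in aged FO B cells and 191 to 225 FPKM in ABCs. Most of it was Xbp1, with means of 114 and 134 FPKM, which was not called (limma adjusted p = 0.0840), nor was Irf4, at 17.3 and 15.6 FPKM. Jchain, Sdc1 and Prdm1 rose in ABCs by 2.34, 1.82 and 1.97 on the log2 scale (limma adjusted p = 0.0188, 0.0142 and 0.00119), from means of 5.93, 3.11 and 0.379 FPKM to 38.2, 15.8 and 4.46 FPKM. The part of other cells in the GIMAP results was not tested.

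The 8 genes form, by GENCODE M21 (GRCm38, the same assembly as mm10), 1 cluster on chromosome 6 from 48647234 to 48770851, a span of 123618 bases, and all are protein-coding. Their order is Gimap8, Gimap9, Gimap4, Gimap6, Gimap7, Gimap1, Gimap5 and Gimap3, with Gimap6 and Gimap3 on the minus strand and the other 6 on the plus strand. Gimap4 spans 48684549 to 48692060, Gimap6 48701582 to 48708225, Gimap1 48739054 to 48743795, Gimap5 48746197 to 48754210, Gimap3 48764464 to 48770851, Gimap7 48718621 to 48724636, Gimap8 48647234 to 48660875 and Gimap9 48676129 to 48679114. Gimap1 overlaps the antisense gene Gimap1os, and Gimap7, Gimap1 and Gimap5 overlap the readthrough gene Gm28053. Neither symbol was listed in the deposited values, and the protocol does not mark strand, so reads from the part that Gimap1 shares with Gimap1os, which holds 0.224% of the read-length windows of the Gimap1 transcripts, cannot be told apart.

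The promoters of the 3 genes below are shown because Gimap4 had the largest rise in ABCs, Gimap6 the largest fall, and Gimap8 was the single member with a T-box match. They run from 250 bases before to 50 bases after the RefSeq start site, on GRCm38.p6, 5′ to 3′ on the strand of the gene. Capitals mark matches, on either strand, to the letters GGTGTGA (T-box) or CCACCC (KLF), and Gimap6 has none.
Gimap4, chr6:48684328-48684627, plus strand: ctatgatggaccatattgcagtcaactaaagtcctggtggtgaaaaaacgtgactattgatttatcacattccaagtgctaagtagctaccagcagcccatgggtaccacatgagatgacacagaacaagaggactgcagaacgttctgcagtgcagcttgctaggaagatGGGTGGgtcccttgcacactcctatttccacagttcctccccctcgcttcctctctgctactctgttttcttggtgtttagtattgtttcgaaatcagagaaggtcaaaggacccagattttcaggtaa
Gimap6, chr6:48708195-48708494, minus strand: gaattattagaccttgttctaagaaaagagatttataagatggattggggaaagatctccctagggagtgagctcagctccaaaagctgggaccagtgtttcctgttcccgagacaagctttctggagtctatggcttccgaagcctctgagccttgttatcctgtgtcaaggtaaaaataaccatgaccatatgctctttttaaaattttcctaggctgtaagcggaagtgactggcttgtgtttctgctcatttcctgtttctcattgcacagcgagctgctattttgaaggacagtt
Gimap8, chr6:48646984-48647283, plus strand: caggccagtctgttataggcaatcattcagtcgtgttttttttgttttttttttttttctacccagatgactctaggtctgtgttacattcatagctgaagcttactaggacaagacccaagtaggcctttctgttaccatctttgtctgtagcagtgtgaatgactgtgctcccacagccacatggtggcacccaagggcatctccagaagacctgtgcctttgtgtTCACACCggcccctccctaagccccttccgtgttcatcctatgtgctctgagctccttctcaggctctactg

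RefSeq held 9 promoters for the 8 members, with Gimap8 represented by a pair of start sites. T-box factors were searched because Tbx21, which encodes T-bet, defines many ABCs, and it was at 178 FPKM on average in ABCs (Aged) and 6.98 FPKM in FO B (Aged). The T-box letters were found in 1 of 8 members and in 3.98% of 32851 promoters of the same length. The KLF letters were found in 5 of 8 members (Gimap3, Gimap4, Gimap5, Gimap8 and Gimap9) and in 31.5% of all promoters. A member was counted if any of its promoters matched, whereas the percentages are over single promoters. The KLF match of Gimap8 lies in its other promoter, which starts at 48647111 and is not printed. The ETS letters CCGGAAG and the RUNX letters TGTGGTT, held by 8.86% and 5.27% of all promoters, were found in none of the 8. Within a promoter of a member, no match overlaps another. A match is a description of the sequence and not a binding site.

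The ABCs of aged mice were compared with FO B cells of the same age to ask how the populations differ. Of the 8 members, 5 passed the test (limma on log2(FPKM + 1), Benjamini-Hochberg adjusted p under 0.05 over all genes tested), 1 higher and 4 lower in ABCs. Among all 10412 genes tested, 35.9% were called, 19.4% higher and 16.5% lower. The median log2 fold change of the 8 members was -0.18 against -0.01 over all genes tested, and the median of the absolute value was 0.34 against 0.27. The libraries of ABCs (Aged) lay above all those of FO B (Aged) for 2 members, below all of them for 4, and overlapped for 2. Over all genes tested, the libraries did not overlap for 52.6%, with ABCs above for 26.3% and below for 26.3%. An exact two-sided permutation test of 3 against 3 libraries has 20 orders and cannot give a p under 0.1. In these bulk samples, fewer cells of a type and less RNA per cell cannot be told apart. FPKM is scaled by transcript length, so levels are compared between genes on that scale.

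**Figure D1:**
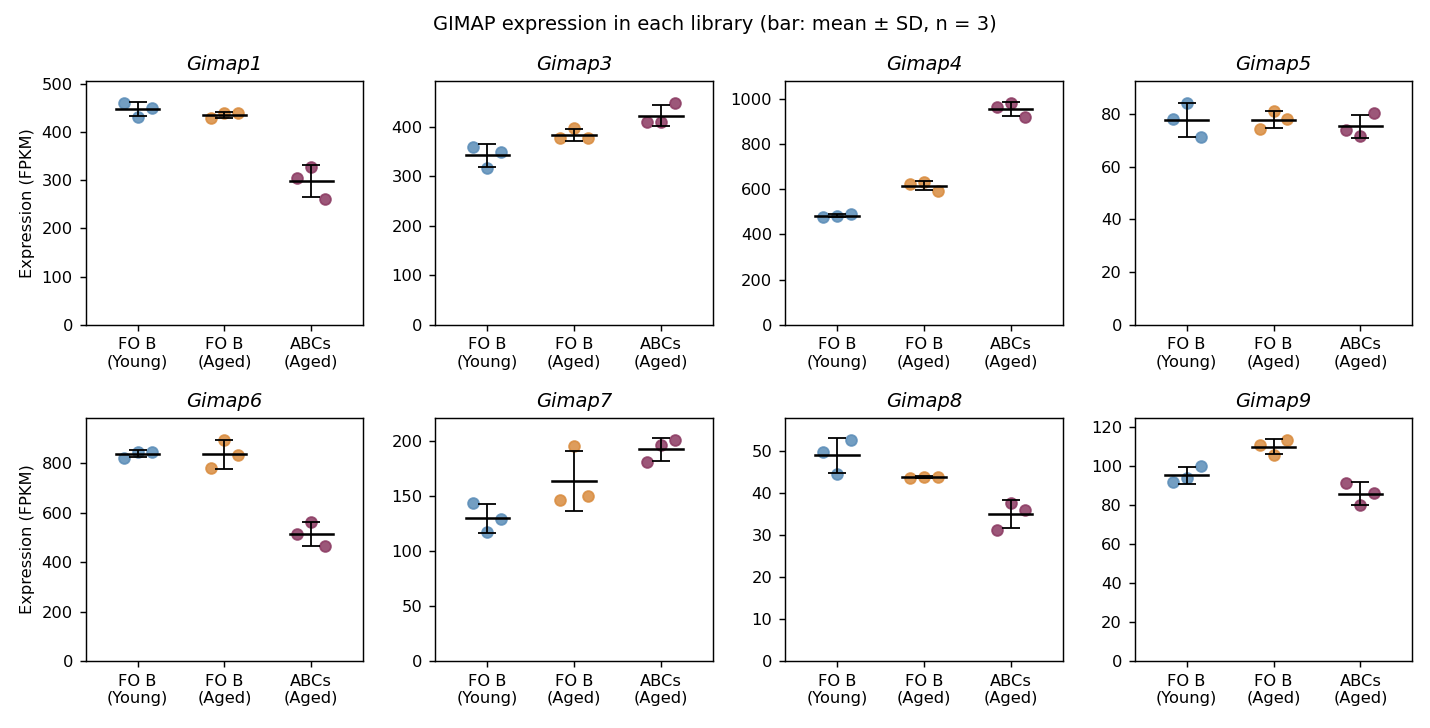
Expression in FPKM (y axis, from 0) of each GIMAP gene in the 9 libraries, with points for the libraries of each group in replicate order and black bars for the mean ± SD (n = 3). Gimap4 was highest in ABCs, at 921 to 982 FPKM, and Gimap1 and Gimap6 were lowest there, at 262 to 328 and 466 to 564 FPKM.

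Gimap1 encodes a GIMAP protein of the endoplasmic reticulum and Golgi that mature B cells need to persist. Its FPKM was 460, 433 and 451 in FO B (Young) replicates 1, 2 and 3, 429, 440 and 440 in FO B (Aged), and 306, 328 and 262 in ABCs (Aged). The 3 ABC libraries were below all 6 FO B libraries, which overlapped between ages. The mean was 436 ± 6.11 FPKM (SD, n = 3) in FO B (Aged) and 299 ± 33.4 in ABCs. Gimap1 fell by 0.55 on the log2 scale in ABCs (SE 0.09, limma adjusted p = 0.0033).

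Gimap5, a lysosomal GIMAP protein whose loss causes lymphopenia and colitis in mice, had almost level means. Its FPKM was 78.1, 84.2 and 71.2 in FO B (Young), 74.5, 81.3 and 78.0 in FO B (Aged), and 73.9, 71.8 and 80.4 in ABCs. The 3 groups overlapped throughout. The log2 fold change in ABCs against FO B (Aged) was -0.05 with a 95% confidence interval from -0.22 to 0.12 (limma adjusted p = 0.615), so a change of the size seen for Gimap1 lay outside the interval.

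Gimap3 is a close relative of Gimap5 that acts at the endoplasmic reticulum and mitochondria and affects how mitochondrial DNA variants segregate in leukocytes. Its FPKM was 359, 317 and 350 in FO B (Young), 377, 396 and 376 in FO B (Aged), and 410, 410 and 447 in ABCs. Each ABC library was above each FO B (Aged) library, by a small margin. The log2 fold change was 0.14 with an interval from -0.01 to 0.29 and did not pass the test (limma adjusted p = 0.134).

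Gimap3 and Gimap5 share sequence, which limits how well their values are separated. The stretch below, 180 bases of coding sequence in GRCm38 read 5′ to 3′, is shown because reads from within its capitals, 140 bases identical in both genes, could come from either.
Gimap3, chr6:48765661-48765840, minus strand: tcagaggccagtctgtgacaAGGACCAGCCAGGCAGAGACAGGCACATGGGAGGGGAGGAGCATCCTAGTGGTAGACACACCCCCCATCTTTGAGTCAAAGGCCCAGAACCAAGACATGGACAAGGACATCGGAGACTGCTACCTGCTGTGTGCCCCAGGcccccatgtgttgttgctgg
Gimap5, chr6:48752664-48752843, plus strand: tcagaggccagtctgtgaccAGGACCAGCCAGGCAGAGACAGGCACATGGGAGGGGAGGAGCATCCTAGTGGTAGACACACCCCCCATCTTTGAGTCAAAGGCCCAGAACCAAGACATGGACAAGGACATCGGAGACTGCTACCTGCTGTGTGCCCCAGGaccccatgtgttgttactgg

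Of the distinct windows as long as the reads, 40 were identical in both genes, which is 1.61% of the windows of Gimap3 and 2.16% of those of Gimap5. With up to 2 mismatches, 355 windows matched, 14.3% and 19.2%. No other pair of members shared a window even with 2 mismatches. Gm28053 held 5.48% of the windows of Gimap1 and 2.91% of those of Gimap5. The ratio of Gimap3 to Gimap5 FPKM ranged from 3.76 to 5.06 in the FO B libraries and from 5.55 to 5.72 in the ABC libraries, and how the counting divided shared reads was not tested.

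Gimap4, tied to the death of lymphocytes and a reported partner of Bax, had the largest rise of the 8 members. Its FPKM was 476, 483 and 489 in FO B (Young), 626, 633 and 592 in FO B (Aged), and 964, 982 and 921 in ABCs. The 3 groups did not overlap, and their order was ABCs, aged FO B cells and young FO B cells. The mean was 617 ± 21.5 FPKM (SD, n = 3) in FO B (Aged) and 955 ± 31.6 in ABCs. The log2 fold change in ABCs was 0.63 (SE 0.06, limma adjusted p = 0.000476). The ABC library with the most Cd3g, replicate 2 at 37.0 FPKM, also had the highest Gimap4. Among the ABC libraries it was also highest for Gimap1, Gimap6 and Gimap8 and lowest for Gimap9, which all fell in ABCs. Without that library the log2 fold change of Gimap4 was 0.61 (limma adjusted p = 0.00254). Whether Gimap4 goes with Cd3g was not tested.

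Gimap6, which binds Gabarapl2 and takes part in autophagy, had the largest fall of the 8 members. Its FPKM was 822, 847 and 846 in FO B (Young), 780, 894 and 831 in FO B (Aged), and 514, 564 and 466 in ABCs. All 3 ABC libraries were below all 6 FO B libraries. The mean was 835 ± 57.1 FPKM (SD, n = 3) in FO B (Aged) and 515 ± 49.4 in ABCs, and Gimap6 fell by 0.70 on the log2 scale (SE 0.09, limma adjusted p = 0.00138).

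Gimap7 encodes a GTPase that can stimulate GTP hydrolysis by a partner GIMAP protein. Its FPKM was 143, 117 and 129 in FO B (Young), 146, 195 and 150 in FO B (Aged), and 180, 196 and 201 in ABCs. FO B (Aged) replicate 2 stood apart from the other 2 libraries of its group and lay within the ABC range. The log2 fold change in ABCs was 0.24 with an interval from -0.03 to 0.51 (limma adjusted p = 0.146), and without FO B (Aged) replicate 2 it was 0.37 (limma adjusted p = 0.018).

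Gimap8, which carries several GTPase domains in 1 protein, had the lowest level of the 8. Its FPKM was 49.7, 44.4 and 52.5 in FO B (Young), 43.5, 43.7 and 43.8 in FO B (Aged), and 31.2, 37.7 and 35.9 in ABCs. The ABC libraries were below all FO B libraries, and the FO B (Aged) libraries were very close together. Gimap8 fell by 0.32 on the log2 scale (SE 0.08, limma adjusted p = 0.0236). The adjusted p was 0.0592 to 0.0734 without FO B (Aged) replicate 1, 2 or 3 or ABCs (Aged) replicate 1, with a fall of 0.24 to 0.32, and 0.0719 with no filter on low values. Under upper quartile scaling the fall was 0.14 (limma adjusted p = 0.409). Its estimated reads were also the fewest, at 606 in the lowest library, for which counting alone gives a coefficient of variation of 4.06%.

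Gimap9 had an FPKM of 92.2, 93.9 and 100 in FO B (Young), 111, 106 and 114 in FO B (Aged), and 91.5, 80.1 and 86.5 in ABCs. The ABC libraries were below the aged and the young FO B libraries, and the FO B (Aged) libraries were the highest. Gimap9 fell by 0.35 on the log2 scale in ABCs against FO B (Aged) (SE 0.07, limma adjusted p = 0.00818).

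**Figure D2:**
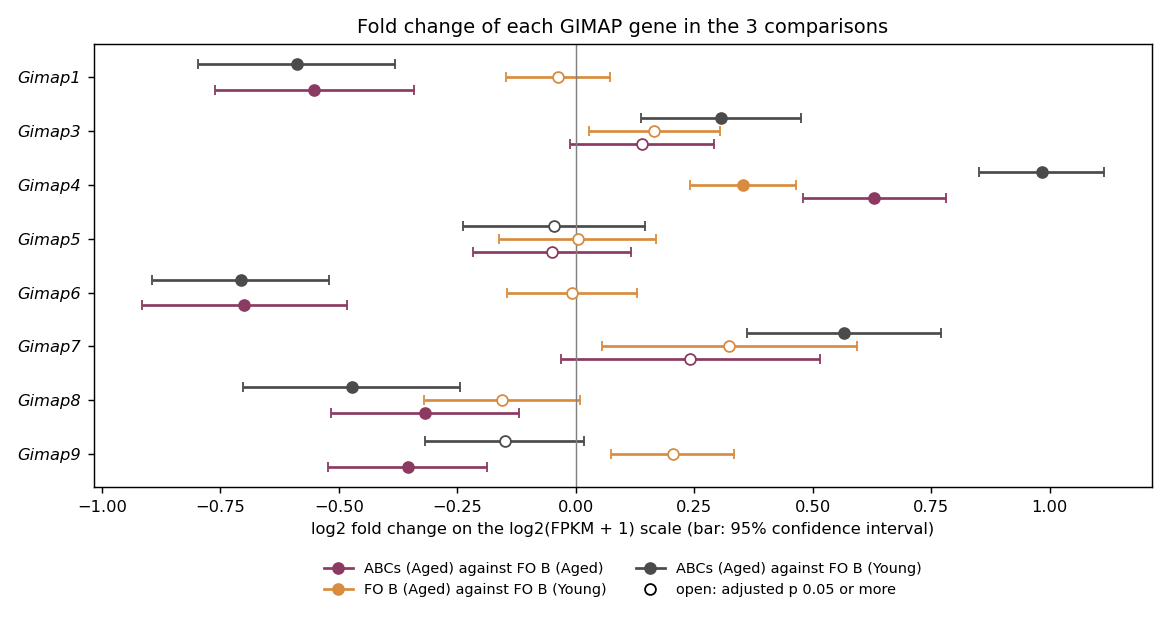
Log2 fold change on the log2(FPKM + 1) scale (x axis) of each GIMAP gene (y axis) in the 3 comparisons, with bars for the 95% confidence interval and open points for an adjusted p of 0.05 or more. Gimap4 lies to the right of 0 in all 3, at 0.63, 0.35 and 0.98, and Gimap6 and Gimap1 lie near 0 with age and to the left of 0 in both comparisons with ABCs.

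The FO B groups were compared to ask what age changes within a population. Of the 8 members, 1 passed the test, Gimap4, which was higher in FO B (Aged). Over all 10122 genes tested, 0.464% were called, 0.346% higher and 0.119% lower. At an unadjusted p under 0.05 there were 4 members, Gimap3, Gimap4, Gimap7 and Gimap9, and 1298 of the 10122 genes tested, or 12.8%. The log2 fold change of Gimap4 was 0.35 (SE 0.05, limma adjusted p = 0.0234), from 483 ± 6.27 to 617 ± 21.5 FPKM (SD, n = 3). Each aged library exceeded each young library. The adjusted p was 0.0720 to 0.143 without FO B (Young) replicate 1, 2 or 3 or FO B (Aged) replicate 1, with a log2 fold change of 0.34 to 0.36. It was 0.0803 to 0.212 with no filter on low values, quantile normalization, upper quartile scaling, eBayes without trend or a replicate block. The median log2 fold change of the 8 members was 0.09 against 0.00 over all genes tested, and the median of the absolute value was 0.16 against 0.09.

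The other 7 members did not pass the test with age. Gimap7, Gimap9 and Gimap3 had log2 fold changes of 0.32, 0.20 and 0.17 (limma adjusted p = 0.295, 0.183 and 0.300), and the aged libraries of all 3 lay above the young ones. Gimap8 was at -0.15 (limma adjusted p = 0.420), with all aged libraries below the young ones. With Gimap4, the FO B groups thus did not overlap for 5 of 8 members, 4 higher and 1 lower with age, against 18.6% of all genes tested, 9.64% higher and 8.96% lower. Gimap1, Gimap5 and Gimap6 were at -0.04, 0.00 and -0.01, with intervals of -0.15 to 0.07, -0.16 to 0.17 and -0.14 to 0.13.

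ABCs of aged mice were also set beside FO B cells of young mice, a comparison that shares the ABC libraries with the first and in which age and population cannot be told apart. Here 6 of 8 members passed the test, 3 higher and 3 lower. Among all 10438 genes tested, 40.7% were called, 21.6% higher and 19.1% lower. The median log2 fold change of the members was -0.10 against -0.01 over all genes tested. The log2 fold change was 0.98 for Gimap4, 0.57 for Gimap7 and 0.31 for Gimap3 (limma adjusted p = 2.95e-05, 0.00225 and 0.0135). Gimap6, Gimap1 and Gimap8 fell by 0.71, 0.59 and 0.47 on the log2 scale (limma adjusted p = 0.000571, 0.00206 and 0.00793). Without FO B (Young) replicate 2, the lowest of the 9 libraries for Gimap3, its adjusted p was 0.0514. The call of Gimap3 was also lost with no filter on low values, quantile normalization or upper quartile scaling (limma adjusted p = 0.0543, 0.0847 and 0.0958), and that of Gimap8 with no filter or upper quartile scaling (limma adjusted p = 0.0502 and 0.0652). Gimap9, which was called against FO B (Aged), was at -0.15 here (limma adjusted p = 0.136), and Gimap5 was at -0.05 (limma adjusted p = 0.689).

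The GIMAP genes were well above most expressed genes. The percentage of genes at 1 FPKM or more with a lower level ranged from 69.3% for Gimap8, in an ABC library, to 99.1% for Gimap4, also in an ABC library. In both FO B groups the order of the levels from high to low was Gimap6, Gimap4, Gimap1, Gimap3, Gimap7, Gimap9, Gimap5 and Gimap8, and the libraries of each neighbouring pair did not overlap. In ABCs the order was Gimap4, Gimap6, Gimap3, Gimap1, Gimap7, Gimap9, Gimap5 and Gimap8, where the libraries of Gimap9 and Gimap5 overlapped and those of the other neighbours did not. The top of the order thus differed, and the last 4 places were the same.

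The makeup of the summed level differed between ABCs and FO B (Aged), whose sums overlapped. The sum reached 2418 to 2489 FPKM in young FO B cells, and over all 9 libraries it took 0.351% to 0.408% of all FPKM. Gimap4 made up 19.6% ± 0.387 of the sum (SD, n = 3) in young FO B cells, 23.1% ± 0.901 in aged FO B cells and 37.0% ± 0.395 in ABCs. Gimap6 made up 34.0% ± 0.945, 31.3% ± 1.01 and 19.9% ± 1.26. The ratio of Gimap4 to Gimap6 FPKM, which no scaling of a whole library can change, lay between 0.570 and 0.579 in young FO B cells, between 0.708 and 0.802 in aged ones and between 1.74 and 1.98 in ABCs.

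**Figure D3:**
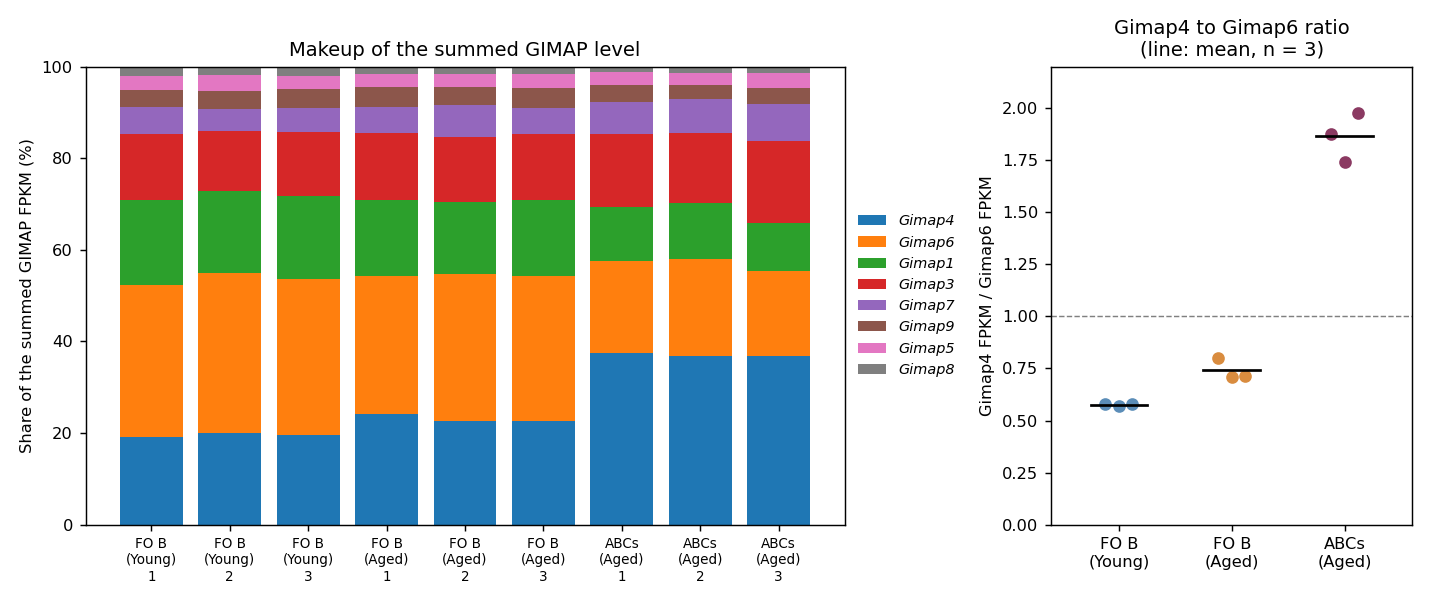
Left, share in percent (y axis) of each GIMAP gene in the summed GIMAP FPKM of each library (x axis). Right, ratio of Gimap4 to Gimap6 FPKM (y axis) in the libraries of each group, with a line for the mean (n = 3) and a dashed line at 1. The ratio was below 1 in all 6 FO B libraries and above 1 in all 3 ABC libraries.

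Position in the cluster did not sort the members by direction. Gimap4, which rose in ABCs, lies between Gimap9 and Gimap6, which both fell, at distances of 5434 and 9521 bases. Gimap1, which fell, ends 2401 bases before Gimap5, whose interval included 0. Of the members on the minus strand, Gimap6 fell and Gimap3 was not called.

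**Figure D4:**
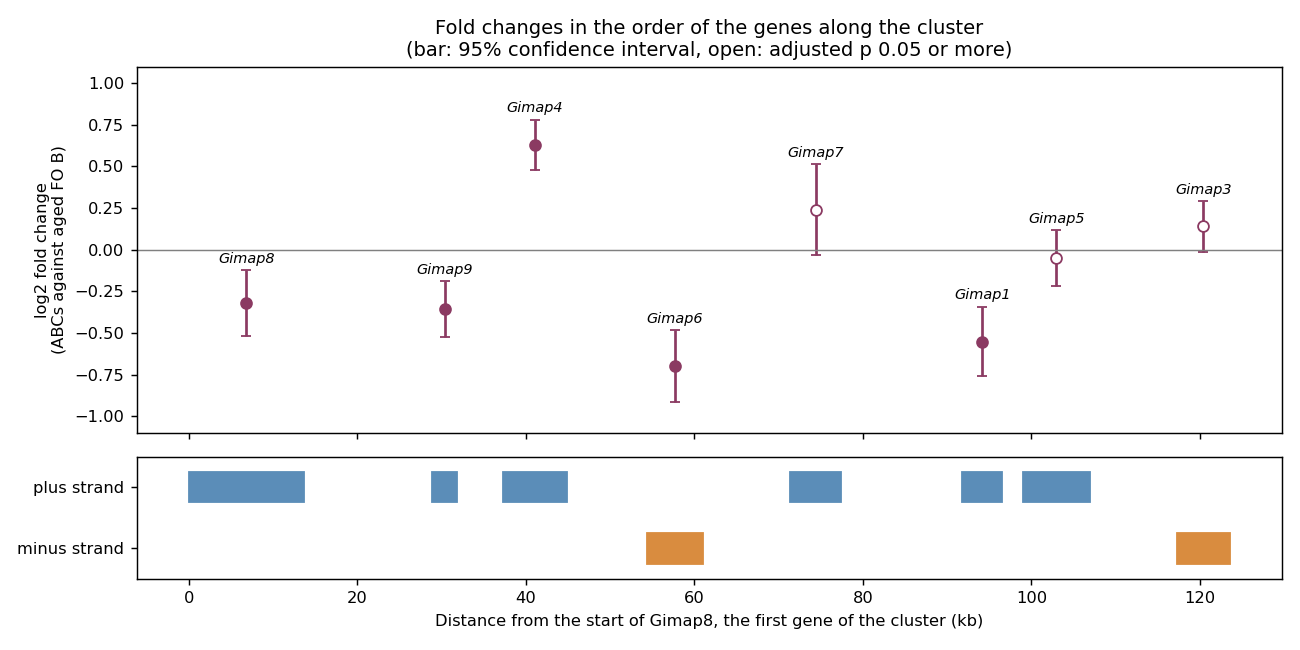
Top, log2 fold change of ABCs (Aged) against FO B (Aged) (y axis) of the 8 genes at their distance in kb from the start of Gimap8 (x axis), with bars for the 95% confidence interval and open points for an adjusted p of 0.05 or more. Bottom, the extent of each gene by strand. Gimap4 at 0.63 sits between Gimap9 at -0.35 and Gimap6 at -0.70.

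Within 300000 bases on either side of the cluster, 43 other genes are annotated, 20 are listed in the deposited values and 8 had a mean of at least 1 FPKM. Of these 8, 2 were higher and 1 was lower in ABCs than in FO B (Aged), against 19.4% higher and 16.5% lower over all genes tested. With age limma called 0 of 8, and 2 had an unadjusted p under 0.05, against the 12.8% of all genes tested. Tmem176a and Tmem176b, paired genes that encode membrane proteins of myeloid and lymphoid cells, had log2 fold changes of 1.83 and 1.47 (limma adjusted p = 0.00151 and 0.00542), from means of 2.07 and 8.78 FPKM in FO B (Aged) to 10.2 and 26.2 FPKM in ABCs. Krba1 fell by 0.88 on the log2 scale (limma adjusted p = 0.00619), from a mean of 2.56 FPKM to 0.94 FPKM. Lrrc61, Repin1, Rarres2, Zfp467 and Zfp775 were not called, with log2 fold changes from -0.08 to 0.35. The largest rise of a neighbour thus exceeded that of Gimap4 on the log2 scale, from a far lower level.

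Genes whose proteins are tied to GIMAP proteins, and genes of naive lymphocyte homing and survival, were read from 4 lists. They are to be set beside the 19.4% of genes called higher and the 16.5% called lower over all genes tested. Gimap3 and Gimap5 have been reported to bind anti-apoptotic BCL-2 proteins, and Gimap4 to bind Bax. Of 6 BCL-2 family genes, 5 were tested, and 2 were higher and none lower in ABCs than in FO B (Aged), with a median log2 fold change of -0.04. Bcl2l1, which encodes the anti-apoptotic Bcl-xL, rose by 0.86 on the log2 scale (limma adjusted p = 0.00676), from 1.51 to 2.51 FPKM over the FO B (Aged) libraries to 4.37 to 5.06 in ABCs. Bad, a pro-apoptotic member, rose by 0.70 (limma adjusted p = 0.00522). Bcl2 was at -0.35 (limma adjusted p = 0.159), and Bax was at 122 ± 8.76 FPKM in FO B (Aged) and 118 ± 9.60 in ABCs (SD, n = 3).

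The Atg8 family of autophagy includes Gabarapl2, the partner of Gimap6. Of 5 genes tested, 2 were higher and 1 lower in ABCs than in FO B (Aged), with a median log2 fold change of 0.29. Gabarapl2 was at 194 to 208 FPKM in aged FO B cells and 168 to 172 FPKM in ABCs, and it fell by 0.25 on the log2 scale (limma adjusted p = 0.0134). Its mean in FO B (Young) was 169 FPKM, and its mean in ABCs was also 169 FPKM, and it was not called against FO B (Young) (limma adjusted p = 0.933), whereas Gimap6 was. Gabarap rose by 0.40 and Map1lc3b by 0.29 (limma adjusted p = 0.00246 and 0.0143).

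Loss of Gimap5 has been tied to Gsk3b, a kinase, and to loss of FOXO factors in lymphocytes. Of 4 genes in that list 3 were tested, and 0 were higher and 2 lower in ABCs than in FO B (Aged), with a median log2 fold change of -0.39. Foxo1 and Foxo4 fell by 0.39 and 0.71 on the log2 scale (limma adjusted p = 0.026 and 0.0182), and Gsk3b was at 0.01 (limma adjusted p = 0.976). Foxo4 was at a low level, with means of 1.75 FPKM in FO B (Aged) and 0.685 FPKM in ABCs, where adding 1 to the FPKM makes the fold change smaller.

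Genes of naive lymphocyte homing and survival, a state in which GIMAP genes are known to be well expressed, went in both directions. Of the 7 genes reported here 6 were tested, and 3 were higher and 2 lower in ABCs than in FO B (Aged). The median over the list is not given because 1 gene of it is not reported here. Satb1, a chromatin organizer, and Lef1 fell by 3.19 and 1.70 on the log2 scale (limma adjusted p = 0.000107 and 0.000983), while Tcf7 and Klf2 rose by 2.05 and 0.55 (limma adjusted p = 0.0013 and 0.0142). Lef1 and Tcf7 were at low levels, with means of 2.75 and 0.188 FPKM in FO B (Aged) and 0.132 and 4.12 FPKM in ABCs. Against FO B (Young), the counts of higher and lower genes in ABCs were 2 and 1 for the BCL-2 list and 2 and 0 for Atg8. They were 0 and 2 for the kinase and FOXO list and 3 and 2 for the naive lymphocyte list. Over all genes tested in that comparison, 21.6% were called higher and 19.1% lower. With age in FO B cells, limma called 0 of the 18 genes tested in the 4 lists, and 4 had an unadjusted p under 0.05, to be read against the same 12.8% of all genes.

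**Figure D5:**
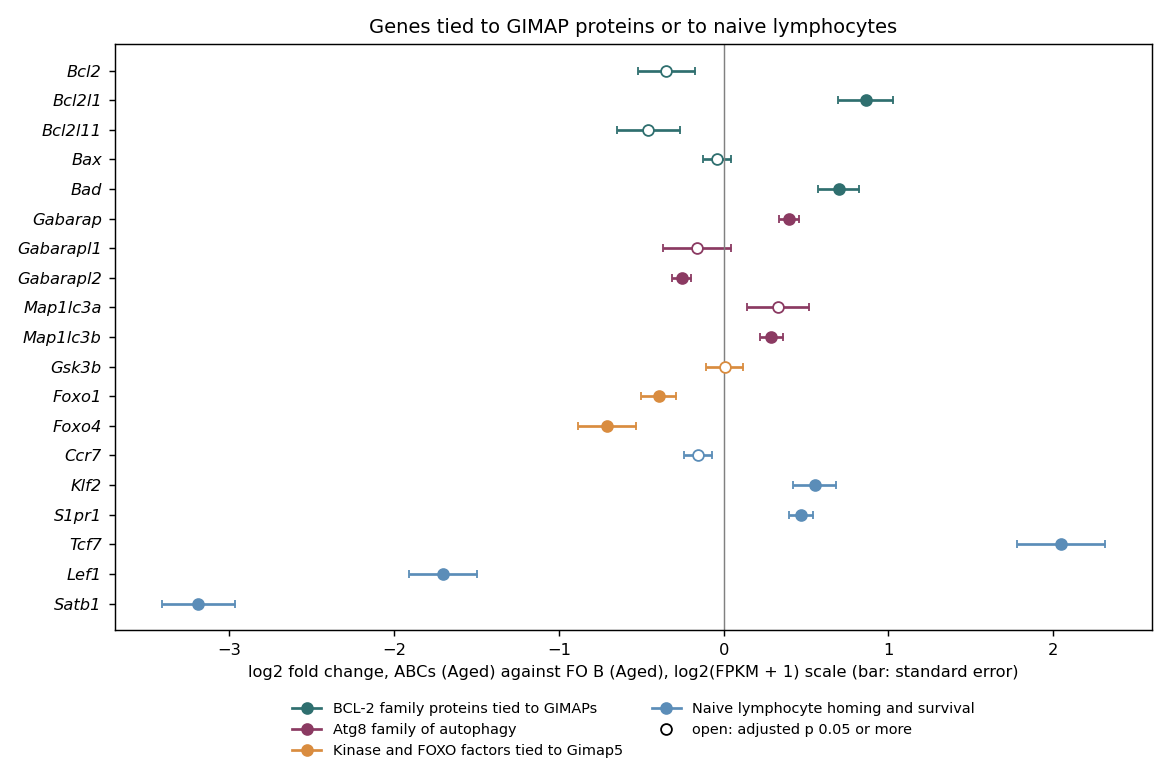
Log2 fold change of ABCs (Aged) against FO B (Aged) on the log2(FPKM + 1) scale (x axis) of the tested genes of the 4 lists (y axis), with bars for the standard error and open points for an adjusted p of 0.05 or more. Bcl2l1 and Bad lie to the right of 0, Gabarapl2, Foxo1 and Foxo4 to the left, and the naive lymphocyte genes on both sides, from -3.19 to 2.05.

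For each member called between ABCs and FO B (Aged), the 3 genes with the most similar pattern were found among 10367 genes as the smallest root mean square difference of log2(FPKM + 1), centred per gene, over the 9 libraries. For Gimap4 these were Hsdl2, Rtn3 and Hif1a, at 0.0831, 0.0904 and 0.0979, and for Gimap6 Rnf167, Trim12c and Tmem206, at 0.0543, 0.0579 and 0.0613. For Gimap1 they were Gclc, Icam2 and Gas5, at 0.0368, 0.04 and 0.0429. Icam2, an adhesion molecule of lymphocytes and endothelium, had means of 166, 159 and 111 FPKM in the order FO B (Young), FO B (Aged) and ABCs, close to the proportions of Gimap1. For Gimap8 they were Polr3b, Tbl1x and Ewsr1, at 0.044, 0.0589 and 0.059, and for Gimap9 Actl6a, Donson and Dhx15, at 0.05, 0.0563 and 0.0607. No member was among the genes compared.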

How the data were processed

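Bulk RNA-seq of 9 libraries was analysed, with groups and replicate numbers from the labels. The authors deposited 1 FPKM value per gene symbol and library. According to the methods, SMART-Seq HT cDNA and Nextera libraries were sequenced as single-end reads, mapped to mm10 with TopHat and summarised with Cufflinks. The submitters' processing notes name TopHat2 2.1.1, Bowtie2 2.2.8, SAMtools 0.1.18 and Cuffdiff 2.2.1, and the methods name other versions of the aligners. A scaling between libraries is not given in the sources used here, and the gene annotation is not given either. By the paper, the replicates of a group are separate mice. Whether aged FO B cells and ABCs came from the same mice is not given in the sources used here, and p-values measure only the spread between these libraries.

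From the deposited FPKM, log2(FPKM + 1) was modelled by lmFit and eBayes (with trend) of limma 3.58.1 under R 4.3.3, on the 6 libraries of each pair of groups and on genes averaging at least 1 FPKM in them, with Benjamini-Hochberg adjustment over all genes tested and calls at an adjusted p under 0.05. Fold changes are on that scale. In simulated data, 100 genes were changed by 0.5 and 100 by 1 on the log2 scale. Of these, 47 and 87 were called between ABCs and FO B (Aged) (10290 genes, 7 unchanged genes called). The counts were 68 and 91 between the FO B groups (10073 genes, 11) and 45 and 85 between ABCs and FO B (Young) (10308 genes, 6). The changed genes were not of low level, all others were unchanged, and the noise was normal. In the data, 35.9% of genes were called between ABCs and FO B (Aged), so these recoveries need not hold there. Depth was estimated from the FPKM of 1 read in 3076 single-transcript genes of at least 1000 bases, with a fragment length of 200 bases assumed, and gave 606 to 12267 reads per GIMAP gene and library.

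Positions are from GENCODE M21 and promoters from RefSeq (GRCm38.p6). The members and gene lists were chosen with earlier results of these data known. Named genes are all members, up to 4 called genes a list with the largest change, neighbours with a mean of at least 1 FPKM, the 3 most similar genes of each called member, and list genes whose level the text needs. In the lists, 2 genes are not reported here and were left out of the counts and sums. S1pr1, the fifth called naive lymphocyte gene, and 2 called GBP and IRG genes are only counted. Spn, Cd3g and Prf1 were singled out after their values were seen. Alternatives were other pseudocounts, filters, scalings, thresholds, a replicate block, a fit of all 9 libraries and leaving out each library. Python 3.11.15, numpy 2.4.6, pandas 2.3.3, scipy 1.17.1 and matplotlib 3.10.9 were used.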

Additional observations from a re-analysis of the deposited data

How the results depend on the processing

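Between ABCs and FO B (Aged), Gimap4 and Gimap6 were called in the same direction in all 16 alternatives to the fit. Gimap1, Gimap8 and Gimap9 kept their direction, and the calls of all 3 were lost under upper quartile scaling of all genes above 0 (limma adjusted p = 0.125 for Gimap1, 0.409 for Gimap8 and 0.337 for Gimap9). With no filter on low values the call of Gimap8 was also lost (0.0719), which left 4 members in place of 5. Between ABCs and FO B (Young), no filter lost Gimap3 and Gimap8 (0.0543 and 0.0502), which left 4 members in place of 6, quantile normalization lost Gimap3 (0.0847), and upper quartile scaling lost Gimap1, Gimap3 and Gimap8 (0.0501, 0.0958 and 0.0652). Under upper quartile scaling the median log2 fold change of all genes was 0.15 for ABCs against FO B (Aged), -0.12 for the FO B groups and 0.03 for ABCs against FO B (Young). In the main fit these medians were -0.01, 0.00 and -0.01. That scaling gave 2, 0 and 3 members called in place of 5, 1 and 6. Scaled instead to the upper quartile of the genes tested, chosen after seeing the data, the counts were 5, 1 and 6. A stricter call, which adds a minimum absolute log2 fold change of 2.3 to an adjusted p below 0.01, left 0 members in each comparison. With age, the count was also 0 at an adjusted p under 0.01, with no filter, with quantile normalization, with eBayes without trend and with the replicate block, and Gimap4 then had an adjusted p of up to 0.130 (0.212 under upper quartile scaling). Leaving out 1 library gave 4 to 5, 0 to 1 and 5 to 6 members called. Gimap9 was called between ABCs and FO B (Young) with quantile normalization (adjusted p = 0.0253).

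The sign turned for 2 uncalled members. For Gimap5 the log2 fold change became 0.13 between ABCs and FO B (Aged) and 0.0054 between ABCs and FO B (Young) under upper quartile scaling, and in the latter it ranged from -0.107 to 0.0119 when 1 library was left out (above 0 without FO B (Young) replicate 2). With age it became -0.00284 with quantile normalization, -0.124 with upper quartile scaling and -0.00492 as TPM, and ranged from -0.0573 to 0.0614 when 1 library was left out (below 0 without the third young or the second aged library). For Gimap6 with age it became 0.0513 with quantile normalization and ranged from -0.0576 to 0.0408 when 1 library was left out (above 0 without the first aged library). The causes were not tested.

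Between ABCs and FO B (Aged), deviations from the group means of same-numbered libraries had correlations of 0.0845, -0.019 and 0.108. Over all pairs of libraries of these groups the correlations ranged from -0.108 to 0.108. With 3 libraries in a group, such values cannot tell whether the samples shared mice. With the replicate block, 5, 0 and 6 members were called in the 3 comparisons in the order above. Depth limits Gimap8 most, with 606 estimated reads in its lowest library.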

Other observations

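Other inducible GTPases of immune cells were read beside the GIMAP genes. The GBP and IRG families are induced by interferon and act against intracellular pathogens. Of 14 of their genes, 13 were tested between ABCs (Aged) and FO B (Aged). Among these 13, 3 were higher and 3 lower in ABCs, with a median log2 fold change of -0.08. Over all genes tested, 19.4% were called higher and 16.5% lower. Iigp1, Gbp8 and Gbp6 rose by 2.83, 2.78 and 1.15 on the log2 scale (limma adjusted p = 0.000626, 0.00116 and 0.00129), and Tgtp2 fell by 0.90 (limma adjusted p = 0.0364). Iigp1 was at 0.247 to 1.44 FPKM in FO B (Aged) and at 9.68 to 17.5 FPKM in ABCs, and Gbp8 had means of 3.33 ± 1.70 and 28.3 ± 10.4 FPKM (SD, n = 3). These families hold near-identical copies, so the division of reads among them is uncertain. With age in FO B cells, 0 of 12 tested genes were called by limma, 6 had an unadjusted p under 0.05 (12.8% of all genes tested did), and Gbp7 was nearest, at an adjusted p of 0.0533. GIMAP genes were at higher levels, with summed FPKM of 2499 to 2670 in ABCs against 335 to 355 for the GBP and IRG genes.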
